A study of Mus musculus with 2 samples.

Results

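The genes of the constitutive proteasome were compared between primary mouse fibro-adipogenic progenitors (FAPs) treated with platelet-rich plasma (PRP) and FAPs treated with vehicle. Members were taken by gene name: every Psma, Psmb, Psmc or Psmd name followed by a number, and Psme1 to Psme4. The inducible subunits Psmb8, Psmb9 and Psmb10 and names marked as pseudogenes were left out. The rule gave 40 of the 44291 genes listed, and 38 of them passed a filter on low values, a mean FPKM of 1 or more over both libraries, as did 13401 genes in all.

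The proteasome is the protease complex that degrades proteins tagged with ubiquitin. Its barrel-shaped core is built from alpha rings, which form the gate, and beta rings, which hold the proteolytic sites. A regulatory particle caps the core: a ring of ATPases in its base unfolds the substrate, and a lid removes the ubiquitin chain. Other activators, PA28 and PA200, can replace the regulatory particle and open the gate without ATP.

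FAPs are the mesenchymal cells of skeletal muscle that give rise to fat and fibrous tissue. Both groups were wild-type (WT) primary FAPs, isolated by cell sorting from hind-limb muscle, and both were exposed to an adipogenic induction medium. That medium was DMEM with 20% serum, with insulin at 10 μg/ml, IBMX at 0.5 mM and dexamethasone at 0.25 μM. The groups differed by PRP or vehicle alone according to the labels, while the text of the study describes exosomes from the PRP of young donors as the treatment ahead of the transcriptome. There was 1 PRP library and 1 control library, and the number of animals, the dose and the time are not stated for these libraries.

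FPKM is a read number scaled to exon length and to the assigned reads of the library. The PRP library held 40120843 assigned reads and the control library 34139741. Mitochondrial genes held 2.06% and 3.70% of the summed FPKM. FAP markers were present, at a summed 338.3 and 552.2 FPKM over 8 genes, although Lum was near 0 (0.0815 and 0.0718 FPKM). All 7 FAP markers tested were lower in the PRP library, and of 4 adipocyte markers tested 3 were higher. Of all tested genes 50.9% were higher. At least 1.2-fold lower were 5 of the 7, beside 18.1% of all tested genes. At least 1.2-fold higher were 2 of the 4, or 1 when the libraries were rescaled to a common sum, beside 20.4%. The 3 higher adipocyte markers were Pparg with 8.69 and 6.55 FPKM, Fabp4 with 40.7 and 33.6 FPKM, and Adipoq, nearly level with 5.49 and 5.22 FPKM. Plin1 was lower with 1.73 and 2.10 FPKM, and the adipocyte markers Cidec and Lep were near 0 and not tested. Most markers of other cells were low: platelet markers summed to 1.55 and 1.40 FPKM with Ppbp and Gp9 at 0, and the myogenic genes Pax7 and Myog were at 0. Des, also on the myogenic list, was expressed at 2.91 and 3.39 FPKM. Macrophage markers summed to 10.1 and 10.4 FPKM with Ptprc at 0.0109 and 0.0192, but Cd68 (4.56 and 2.31 FPKM) and Lyz2 (4.91 and 7.57 FPKM) differed in opposite directions. Endothelial markers summed to 9.24 and 5.21 FPKM. Kdr (4.23 and 1.499 FPKM; ratio 2.82) and Tek (4.73 and 3.56 FPKM) were higher with PRP, Pecam1 was low at 0.188 and 0.0470 FPKM, and Cdh5 was at 0.0949 and 0.0976 FPKM. The part of these markers in the differences below was not tested, and in bulk samples fewer cells of a type and less RNA per cell cannot be told apart.

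The proteasome genes were expressed at nearly the same level in both libraries. Their summed level was 2366 FPKM with PRP and 2306 FPKM with vehicle, or 0.690% and 0.680% of all FPKM. The fold change of a gene is given as log2(PRP FPKM + 1) minus log2(control FPKM + 1), so that changes of weakly expressed genes come out too small. Over the 38 tested members the median was 0.04, beside 0.01 for all tested genes, and the members ranged from -0.47 to 0.48. Of the 38, 25 were higher with PRP and 13 were lower, so 65.8% were higher beside 50.9% of all tested genes.

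Members differed less from each other than genes at large did. The SD of their log2 fold changes was 0.18, beside 0.40 over all tested genes and 0.41 over the 6269 genes in the same FPKM range. Within 1.2-fold of the control level lay 33 of the 38 members (86.8%), beside 61.5% of all tested genes. The 4 members at least 1.2-fold higher were Psmb3, Psmb4, Psmd7 and Psme2, or 10.5% beside 20.4% of all tested genes. The only member at least 1.2-fold lower was Psme4, or 2.63% beside 18.1%. These counts of 4 and 1 became 2 and 2 when both libraries were rescaled to a common sum without mitochondrial and top genes, because Psmb3 and Psmb4 fell short and Psmd1 passed. At 1.5-fold no member was called in either direction, where 6.15% of all genes were called higher and 4.57% lower, and none differed 2-fold, as 2.83% of all genes did.

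Each ratio below is PRP over control FPKM, followed by its exact 95% interval from the read numbers (Clopper-Pearson). The intervals cover counting error only and compare these libraries, not the treatments. With 1 library per group there is no replicate error, so no test was run. The interval lay above 1 for 14 members (36.8%) and below 1 for 10 (26.3%), while 26.1% of all genes with an interval lay above 1 and 26.1% below. In the FPKM range of the members these shares were 32.2% and 32.8%. It included 1 for the other 14. Tested members had at least 552 reads in each library.

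**Figure D1:**
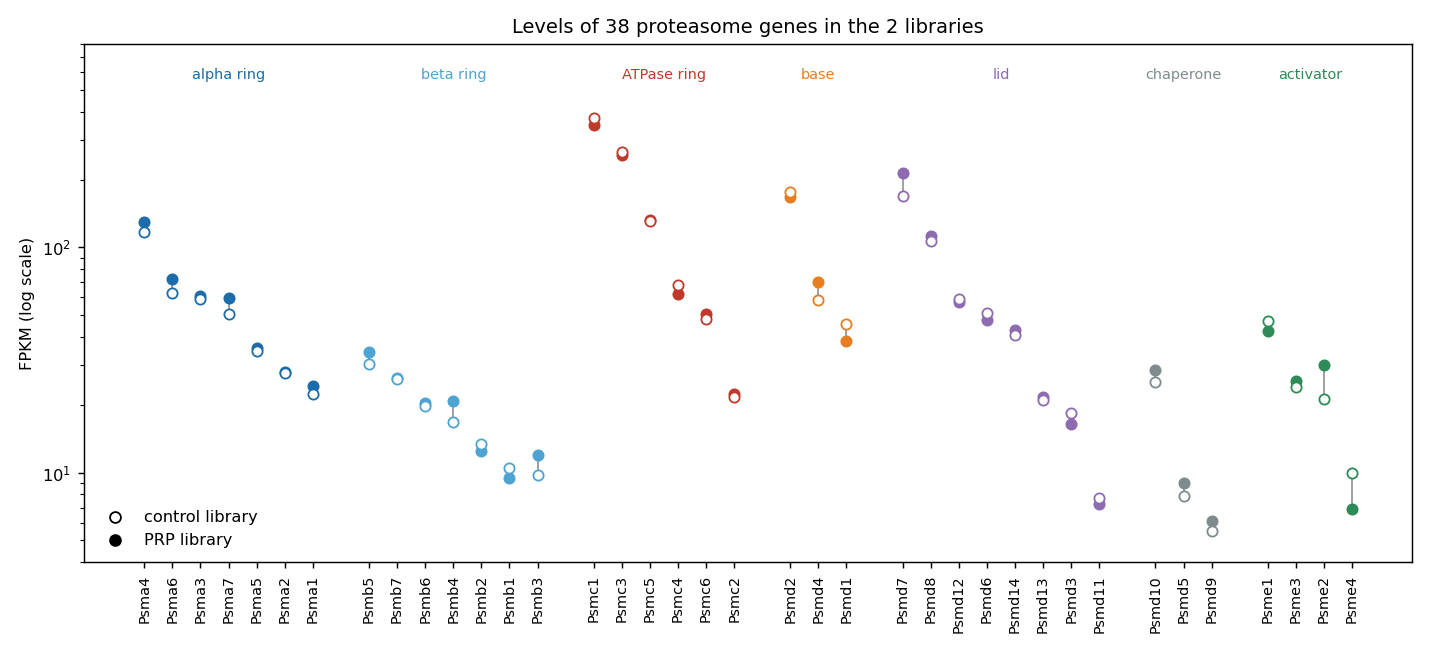
FPKM on a log scale of the 38 tested proteasome genes in the control library (open circles) and the PRP library (filled circles), 1 library each, grouped by subunit class and ordered by control level. The circles of most genes nearly coincide, while levels between genes span from 5.49 to 375.5 FPKM in the control library. The longest gaps are those of Psme2, higher in the PRP library, and Psme4, lower there.

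In the alpha ring, which forms the gate of the core, all 7 tested genes were at or above the control level. Psma7 (alpha4) had 59.8 FPKM with PRP and 50.5 FPKM with vehicle, a ratio of 1.19 (1.13 to 1.25). Psma2 (alpha2) was at the other end, with 27.97 and 27.7 FPKM and a ratio of 1.01 (0.946 to 1.08). Psma2 turned lower when the libraries were rescaled to a common sum, so only 6 of the 7 kept their direction under every scaling. Psma4 (alpha3), the most abundant alpha gene, had 129.2 and 117.1 FPKM (1.10, 1.06 to 1.15). Psma6 (alpha1) had 72.3 and 63.0 FPKM and Psma1 (alpha6) had 24.3 and 22.4 FPKM. The intervals of Psma1, Psma4, Psma6 and Psma7 lay above 1. Psma3 (alpha7) with 60.6 and 58.8 FPKM and Psma5 (alpha5) with 35.8 and 34.8 FPKM had intervals that included 1. The median log2 fold change of the ring was 0.12, and its summed FPKM was 410.1 and 374.3, a ratio of 1.10. Without Psma4 the ratio was 1.09.

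The alpha ring has a germ cell form of alpha4, Psma8, which was not tested. It had 8 reads with PRP and 12 with vehicle. Its level was 0.0800 and 0.141 FPKM, so the constitutive Psma7 made up nearly all alpha4 transcripts in both libraries.

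The beta ring was less even. The 3 catalytic genes differed by at most 1.14-fold. Psmb5 (beta5, the chymotrypsin-like site) had 34.5 FPKM with PRP and 30.2 FPKM with vehicle, a ratio of 1.14 (1.01 to 1.29). Psmb6 (beta1, the caspase-like site) had 20.4 and 19.8 FPKM (1.03, 0.927 to 1.15). Psmb7 (beta2, the trypsin-like site) had 26.3 and 26.1 FPKM (1.01, 0.940 to 1.08), and it turned lower when the libraries were rescaled. The ratio of Psmb5 to Psmb6 was 1.69 with PRP and 1.53 with vehicle, and their quotient of 1.11 had an interval that included 1 (0.940 to 1.30). For Psmb5 to Psmb7 the ratios were 1.31 and 1.16, with a quotient of 1.13 (0.985 to 1.30).

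The non-catalytic beta genes spread to both sides. Psmb4 (beta7) had 20.8 and 16.9 FPKM, the highest log2 fold change of the ring at 0.29, with a ratio of 1.23 (1.10 to 1.37). Psmb3 (beta3) had 11.95 and 9.72 FPKM (1.23, 1.08 to 1.40). On the other side stood Psmb1 (beta6) with 9.46 and 10.5 FPKM, the lowest of the ring, at a ratio of 0.899 (0.816 to 0.989). Psmb2 (beta4) had 12.5 and 13.4 FPKM, and its interval of 0.786 to 1.10 included 1. The ring had a median log2 fold change of 0.04 and summed to 135.9 and 126.7 FPKM, a ratio of 1.07. Psmb11, the thymic form of beta5, had 6 and 4 reads (0.0312 and 0.0245 FPKM) and was not tested. Over both rings 12 of 14 tested core genes were higher and 2 were lower, with 10 of the 12 keeping that direction under rescaling, and 7 intervals lay above 1 and 1 below.

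The ATPase ring, whose 6 genes encode the Rpt subunits that unfold the substrate, lay at or slightly under the control level. Its median log2 fold change was -0.01, 3 genes were higher and 3 were lower, and no interval lay above 1. Psmc4 (Rpt3) was lowest, with 62.3 FPKM with PRP and 68.1 FPKM with vehicle, a ratio of 0.915 (0.866 to 0.966). Psmc1 (Rpt2), the most abundant of all members, had 350.5 and 375.5 FPKM (0.933, 0.911 to 0.956). Psmc3 (Rpt5) had 258.3 and 265.1 FPKM (0.974, 0.951 to 0.999). Psmc6 (Rpt4) was highest with 50.6 and 48.2 FPKM (1.05, 0.999 to 1.10). Psmc2 (Rpt1) had 22.4 and 21.7 FPKM and Psmc5 (Rpt6) had 132.8 and 130.7 FPKM, and both intervals included 1. Psmc5 turned lower when mitochondrial and top genes were left out of the rescaling. The ring summed to 877.0 and 909.4 FPKM, a ratio of 0.964, and to a ratio of 0.986 without Psmc1.

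Of the 3 remaining base genes taken by name 2 were lower and 1 was higher. The 2 lower ones encode the scaffold subunits. Psmd1 (Rpn2) had 38.5 FPKM against 45.5 with vehicle, a ratio of 0.846 (0.816 to 0.878), and Psmd2 (Rpn1) had 167.2 against 176.1 (0.949, 0.926 to 0.973). Psmd4 (Rpn10), a ubiquitin receptor, was higher with 70.0 against 58.7 FPKM (1.19, 1.14 to 1.25). None of these intervals included 1. Adrm1 (Rpn13) of the base and Sem1 of the lid do not bear such names and were counted with the partners further below. Adrm1 had 9.98 FPKM with PRP and 10.4 FPKM with vehicle (0.960, 0.871 to 1.06). Sem1 had 109.0 and 107.2 FPKM (1.02, 0.984 to 1.05).

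In the lid, which carries the deubiquitinase, 4 of the 8 genes taken by name were higher and 4 were lower. Their median log2 fold change was 0.00. Psmd7 (Rpn8), the partner that supports the deubiquitinase Rpn11, stood apart from the rest of the lid. Its level was 213.9 FPKM with PRP and 169.1 FPKM with vehicle, from 19401 and 13053 reads, a ratio of 1.26 (1.23 to 1.31). Psmd14, which encodes Rpn11 itself, had 43.2 and 41.0 FPKM (1.05, 0.991 to 1.12). At the low end Psmd3 (Rpn3) had 16.5 and 18.4 FPKM (0.898, 0.838 to 0.963). The 8 lid genes summed to 519.0 and 473.5 FPKM, a ratio of 1.10, and without Psmd7 to 305.2 and 304.4 FPKM, a ratio of 1.003. The summed difference of these 8 was thus that of 1 gene.

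The other lid genes were close to the control level. Psmd8 (Rpn12) had 112.1 and 106.4 FPKM, with an interval above 1 (1.02 to 1.09), and Psmd6 (Rpn7) had 47.5 and 51.1 FPKM, with an interval below 1 (0.879 to 0.982). Psmd12 (Rpn5) with 57.0 and 58.8 FPKM, Psmd13 (Rpn9) with 21.6 and 20.9 FPKM and Psmd11 (Rpn6) with 7.27 and 7.72 FPKM had intervals that included 1. Over the members of the ATPase ring, base and lid together, 8 genes were higher and 9 were lower. The median log2 fold change was -0.04, and 3 intervals lay above 1 and 7 below. The difference between the core and the regulatory particle was not tested.

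3 names of the Psmd series encode chaperones that assemble the base and leave the finished complex. All 3 were higher in the PRP library, with intervals above 1. Psmd5 (S5b) had 8.97 FPKM against 7.85 with vehicle, a ratio of 1.14 (1.05 to 1.24). Psmd10 (gankyrin) had 28.5 against 25.3 (1.12, 1.01 to 1.25) and Psmd9 (p27) had 6.12 against 5.49 (1.12, 1.01 to 1.23). The median log2 fold change was 0.16.

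**Figure D2:**
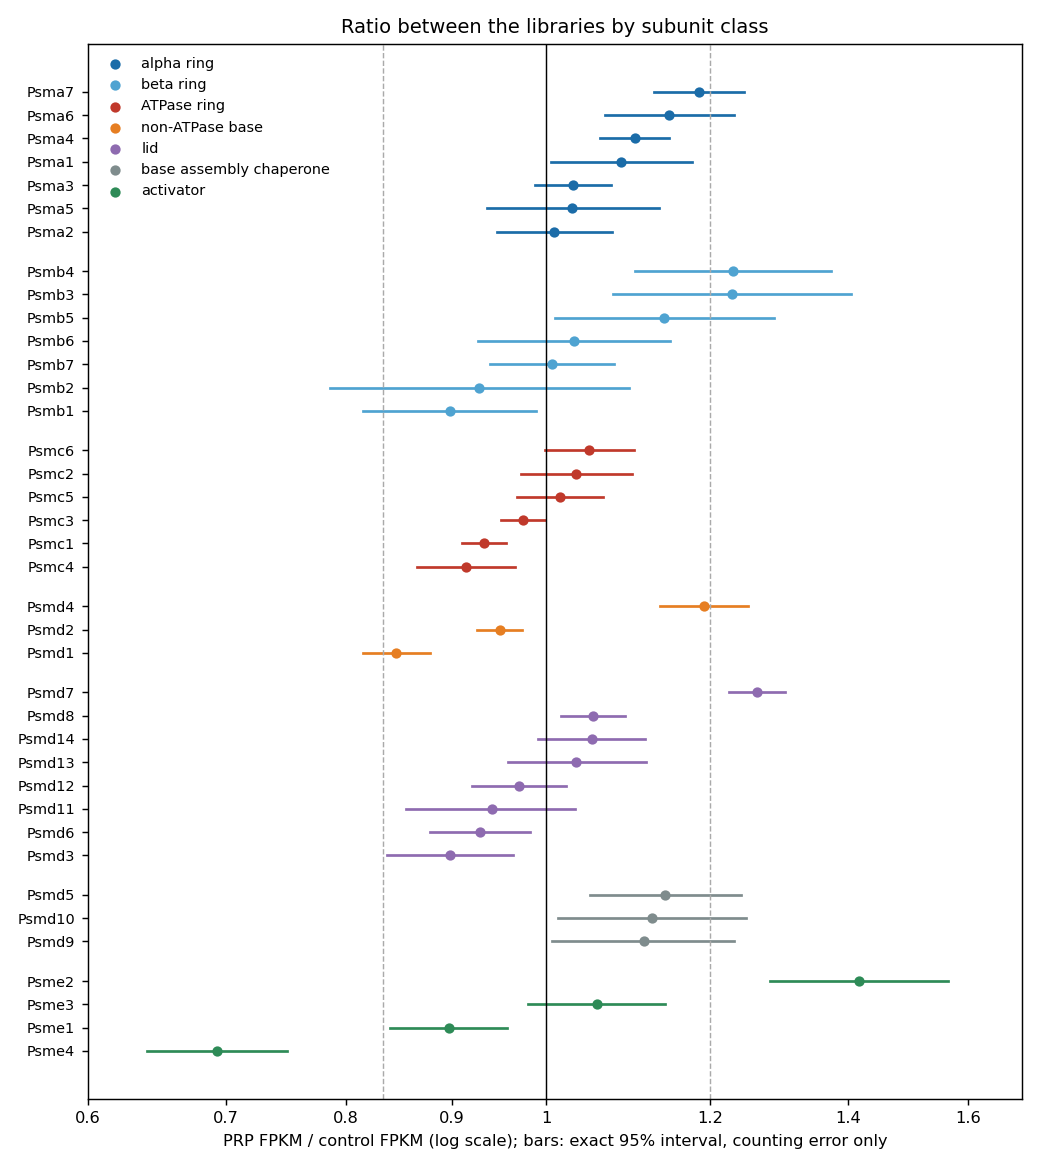
PRP FPKM divided by control FPKM on a log scale (horizontal axis) for each tested proteasome gene, with the exact 95% interval for counting error as a bar. Colours mark the subunit class, the solid line marks a ratio of 1 and the dashed lines 1.2-fold in either direction. All alpha ring points lie at or right of 1, ATPase points lie between 0.915 and 1.05, and Psme2 at 1.42 and Psme4 at 0.693 lie farthest out.

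The activators held both the highest and the lowest log2 fold change of all members. Psme1 and Psme2 encode the alpha and beta subunits of PA28, which form a mixed ring and are known to be induced by interferon. Psme2 (ENSMUSG00000079197, chromosome 14, 55587441 to 55591113 on GRCm38, minus strand) had 30.2 FPKM with PRP and 21.3 FPKM with vehicle. Its ratio was 1.42 (1.28 to 1.56), from 2138 and 1284 reads, and its log2 fold change was 0.48. Psme1 (ENSMUSG00000022216, chromosome 14, 55578123 to 55581529, plus strand) had 42.5 and 47.3 FPKM, a ratio of 0.897 (0.840 to 0.958), from 3764 and 3570 reads. The partners thus differed in opposite directions. The gap between their genes is 5911 bases, and the start sites lie on the far sides of that gap. For each FPKM of Psme1 there was 0.711 FPKM of Psme2 with PRP and 0.450 FPKM with vehicle, a quotient of 1.58 (1.40 to 1.78).

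Psme4 (ENSMUSG00000040850, chromosome 11, 30771726 to 30880361, plus strand) encodes PA200, a large single-chain activator found in the nucleus. It had 6.93 FPKM with PRP and 9.99 FPKM with vehicle. The ratio was 0.693 (0.641 to 0.750), from 2330 and 2860 reads, and the log2 fold change was -0.47. Psme3, which encodes the nuclear activator PA28 gamma, had 25.5 and 24.1 FPKM (1.06, 0.980 to 1.14). The level of Psme4 relative to Psme3 was 0.272 with PRP and 0.415 with vehicle, a quotient of 0.655 (0.587 to 0.731).

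Because these opposing directions canceled, the 4 activators summed to 105.1 and 102.8 FPKM, a ratio of 1.02, while the SD of their log2 fold changes was 0.40. Over the 34 members that are not activators the SD was 0.14. Without Psme2 the summed ratio of the activators was 0.920.

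**Figure D3:**
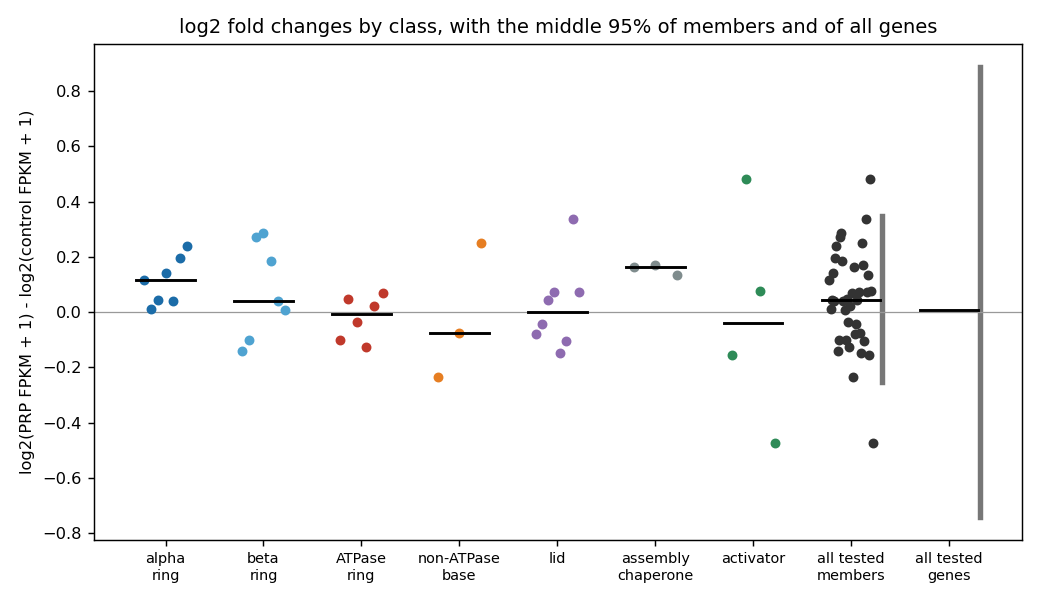
log2 fold change, log2(PRP FPKM + 1) minus log2(control FPKM + 1), of each tested proteasome gene by class, with black lines at the medians. Grey bars span the middle 95% of the members (-0.25 to 0.35) and of all 13401 tested genes (-0.74 to 0.89). The medians run from -0.07 in the non-ATPase base to 0.16 in the assembly chaperones, and the activators are the widest class.

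The start sites of the 3 activator genes that differed most are shown because PA28 genes are known interferon targets and PA200 lies at the other extreme. The windows, from RefSeq on GRCm38.p6, run from 250 bases before to 50 bases after the start site, 5′ to 3′ on the strand of the gene. Capitals mark a match to the interferon response element core GAAANNGAA in the PA28 genes and to the antioxidant response element core TGACNNNGC in Psme4, on either strand.
Psme1 (chr14:55578244-55578543, plus strand): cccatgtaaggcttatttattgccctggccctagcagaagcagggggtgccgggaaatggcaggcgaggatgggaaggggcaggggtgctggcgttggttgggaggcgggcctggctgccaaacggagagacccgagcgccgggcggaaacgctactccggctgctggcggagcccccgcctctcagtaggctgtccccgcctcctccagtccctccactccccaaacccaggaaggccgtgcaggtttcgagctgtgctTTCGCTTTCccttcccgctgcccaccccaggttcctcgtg
Psme2 (chr14:55591052-55591351, minus strand): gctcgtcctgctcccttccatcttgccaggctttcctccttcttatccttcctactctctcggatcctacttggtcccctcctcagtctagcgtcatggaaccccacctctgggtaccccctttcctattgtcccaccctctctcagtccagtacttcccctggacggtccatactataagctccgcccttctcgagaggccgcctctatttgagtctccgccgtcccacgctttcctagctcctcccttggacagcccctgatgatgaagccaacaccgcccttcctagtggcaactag
Psme4 (chr11:30771525-30771824, plus strand): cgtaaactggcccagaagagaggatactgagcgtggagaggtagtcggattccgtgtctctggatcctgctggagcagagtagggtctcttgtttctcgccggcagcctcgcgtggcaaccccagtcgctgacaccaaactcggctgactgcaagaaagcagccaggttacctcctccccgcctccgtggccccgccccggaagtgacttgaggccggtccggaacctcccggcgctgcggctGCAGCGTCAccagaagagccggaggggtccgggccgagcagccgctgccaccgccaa

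The Psme1 window held 1 match to GAAANNGAA, read on the opposite strand as TTCGCTTTC, and the Psme2 window held none. The Psme1 match lay past the start site, at position 10. The relation of such matches to the differences between the libraries was not tested. The Psme4 window held 1 match to TGACNNNGC, read as GCAGCGTCA. RefSeq lists 2 windows for Psme2, of which 1 is shown. A match is a run of letters and not a measured binding site, and a missing match says only that these letters are not in the window.

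Windows were at hand for 33 of the 40 members and for 27025 genes in all. On either strand TGACNNNGC was found in 6 member genes (18.2%, beside 14.0% of all genes): Psmb5, Psmb6, Psmc6, Psmd9, Psmd12 and Psme4. These 6 had ratios from 0.693 for Psme4 to 1.14 for Psmb5. The CCAAT box (CCAAT) was in 13 members (39.4%, beside 41.1%) and the YY1 motif GCCATNTTG in 1, Psmd8 (3.03%, beside 2.90%). Another 5 motifs were searched after the first results were seen. The ETS site CCGGAAG was in 12 members (36.4%, beside 9.93%), among them 9 genes of the regulatory particle: Psmc1, Psmc2, Psmc6, Psmd2, Psmd4, Psmd6, Psmd11, Psmd12 and Psmd13. Psmc3, Psmd3 and Psmd7 of that particle had no window. The shares of all genes here cover every gene with a window, expressed or not. A related antioxidant core, TGAGNNNGC, which differs in 1 letter and cannot match the same bases in the same reading, was in 11 members (33.3%, beside 19.8%), and GAAANNGAA was in 6 (18.2%, beside 9.76%). The STAT site TTCNNNGAA was in 1 (3.03%, beside 9.55%), and the CRE TGACGTCA was in none, beside 2.03% of all genes. The shares are descriptions, and no enrichment was tested.

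The inducible core subunits, which replace the catalytic ones in the immunoproteasome, were low beside their constitutive partners. Psmb8, which replaces Psmb5, had 4.10 FPKM with PRP and 2.91 FPKM with vehicle, a ratio of 1.41 (1.16 to 1.72). Psmb10, which replaces Psmb7, had 9.20 and 7.59 FPKM (1.21, 1.01 to 1.44). Psmb9, which replaces Psmb6, had 0.681 and 0.288 FPKM from 100 and 36 reads (2.36, 1.36 to 4.30) and did not reach the filter. All 3 were higher, and none reached its partner. The level of Psmb8 was 0.119 of that of Psmb5 with PRP and 0.0963 with vehicle, with a quotient whose interval included 1 (1.23, 0.979 to 1.56). The level of Psmb10 was 0.349 and 0.290 of that of Psmb7, a quotient whose interval included 1 (0.994 to 1.45). The level of Psmb9 was 0.0333 and 0.0145 of that of Psmb6 (2.29, 1.30 to 4.22).

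Most genes of the interferon list were higher by more than any proteasome subunit. All 12 genes of the list were above the control level, or 11 when mitochondrial and top genes were left out of the rescaling. At least 1.2-fold higher were 10. Of all tested genes 50.9% were higher and 20.4% at least 1.2-fold higher. The gene lists were chosen with earlier results of these data known, so their counts and medians are descriptions. Their median log2 fold change was 1.10. Isg15, a ubiquitin-like modifier, had 159.6 FPKM with PRP and 35.7 FPKM with vehicle, without whole reads and so without an interval. Ifit1, an RNA-binding antiviral protein, had 25.3 and 6.53 FPKM (3.88, 3.42 to 4.42). Psme2 followed the direction of the list at 1.42-fold and Psme1 did not.

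Genes of the NRF1 pathway, which controls proteasome gene expression, lay mostly at or below the control level. NRF1, encoded by Nfe2l1, is the transcription factor that raises proteasome genes when the proteasome is inhibited, and it is released from the endoplasmic reticulum, deglycosylated and cleaved first. Of the 8 genes of this pathway 7 were lower and 1 was higher, with a median log2 fold change of -0.07, and 4 intervals lay below 1. The lower genes Ufd1 (ratio 0.998), Syvn1 (0.985) and Nploc4 (0.949) had intervals that included 1. Of all tested genes 50.9% were higher, and 26.1% of all intervals lay below 1. Sel1l, of the ubiquitin ligase complex of the endoplasmic reticulum, had 21.7 FPKM against 30.5 with vehicle, a ratio of 0.712 (0.682 to 0.744). On the scale with the added 1 it was the only gene of the list at least 1.2-fold lower, or 1 of 3 such genes when mitochondrial and top genes were left out of the rescaling. Ngly1, which encodes the deglycosylating enzyme, had 0.957 against 1.33 FPKM (0.719, 0.571 to 0.900), a low level at which the added 1 brought the log2 fold change to -0.25. Nfe2l1 itself, named after its values were seen, had 114.1 against 135.5 FPKM (0.842, 0.822 to 0.864).

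Targets of the related factor NRF2, which responds to oxidants, went far the other way. Of 8 such genes 7 were at least 1.2-fold higher, beside 20.4% of all tested genes, with a median log2 fold change of 1.12. This list too was chosen with earlier results of these data known. Slc7a11, the cystine transporter, had 7.98 FPKM with PRP and 0.766 FPKM with vehicle (10.4, 8.96 to 12.2). Srxn1, which repairs peroxiredoxins, had 226.0 and 65.7 FPKM (3.44, 3.31 to 3.58). The exception was Gsr, which had 7.29 and 7.40 FPKM, and no proteasome subunit reached the median of this list.

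Factors that assemble or assist the proteasome were mostly slightly higher. All 6 genes of the 20S assembly list were higher, beside 50.9% of all tested genes, and the median log2 fold change was 0.20. Of their 6 intervals 2 lay above 1 and 0 below, beside 26.1% of all intervals on each side. On the scale with the added 1, 2 were past 1.2-fold, and Psmg2 (5.16 and 4.23 FPKM, ratio 1.22) was just short of it at a log2 fold change of 0.24. Psmg4, an assembly chaperone of the alpha ring, had 6.87 and 4.75 FPKM (1.45, 0.981 to 2.13), and Psmg3, its partner, had 2.998 and 2.23 FPKM (1.35, 1.05 to 1.72). Of 14 receptors, deubiquitinases and other partners of the regulatory particle 11 were higher and 3 were lower, with a median of 0.07. The numbers were 8 and 6 when mitochondrial and top genes were left out of the rescaling. Of the 14, 1 was at least 1.2-fold higher, beside 20.4% of all tested genes, and 5 intervals lay above 1 and 1 below. The shuttle factors at both ends of that list were Ubqln4 with 6.85 and 5.31 FPKM (1.29, 1.13 to 1.47) and Ubqln2 with 8.50 and 10.3 FPKM (0.826, 0.735 to 0.929). Of 6 ubiquitin genes and E1 enzymes 4 were higher and 2 were lower, with a median of 0.13, and 4 intervals lay above 1 and 2 below. For both of these lists the share of all tested genes that were higher is again 50.9%. Ubb, a polyubiquitin gene, had 879.7 and 710.8 FPKM (1.24, 1.22 to 1.26), and Uba1, the main E1 enzyme, had 33.7 and 38.8 FPKM (0.867, 0.826 to 0.911).

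**Figure D4:**
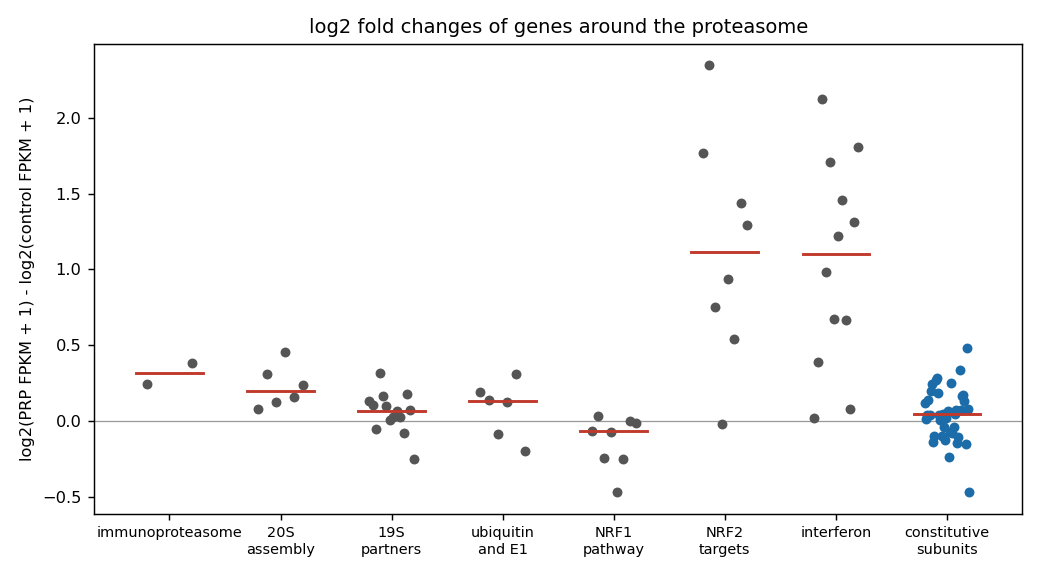
log2 fold change, log2(PRP FPKM + 1) minus log2(control FPKM + 1), of the tested genes of 7 lists around the proteasome and of the 38 tested constitutive subunits (blue), with red lines at the medians. The NRF2 target and interferon lists lie around medians of 1.12 and 1.10, while the constitutive subunits stay between -0.47 and 0.48.

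Transcript levels were unequal, also within the core and within the ATPase ring, whose subunits sit in equal numbers in the complex. In the control library all tested members ran from 5.49 FPKM (Psmd9) to 375.5 FPKM (Psmc1), a 68.4-fold range. That range includes assembly chaperones such as Psmd9 and the activators, which are not fixed parts of the complex. Over the ATPase ring, base and lid together the range was 48.6-fold. The core genes ran from 9.72 FPKM (Psmb3) to 117.1 FPKM (Psma4), a 12.1-fold range, and the ATPase genes from 21.7 FPKM (Psmc2) to 375.5 FPKM, a 17.3-fold range. FPKM here divides by the summed length of all annotated exons of a gene, which was from 1 to 3.36 times the length of its principal transcript. With the length of the principal transcript in its place, all tested members ran from 12.9 (Psme4, an activator) to 456.2 (Psmc1), a 35.3-fold range. The order of the members was largely kept, with a Spearman correlation of 0.906 between both scales over the 38 genes, a description across genes that share their libraries.

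The choice of length moved single genes. Psma7, with the largest length quotient, went from 50.5 FPKM to 169.6 on the principal transcript scale, and Psmc2 from 21.7 to 61.2. On that scale the ATPase range narrowed to 7.46-fold, while the core range stayed at 12.7-fold. The median control level on that scale was 74.6 for the alpha ring and 29.2 for the beta ring. It was 120.4 for the ATPase ring, 123.7 for the non-ATPase base and 78.5 for the lid. Activators had a median of 32.9 and assembly chaperones of 15.3. Ratios between the libraries are the same on both scales.

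**Figure D5:**
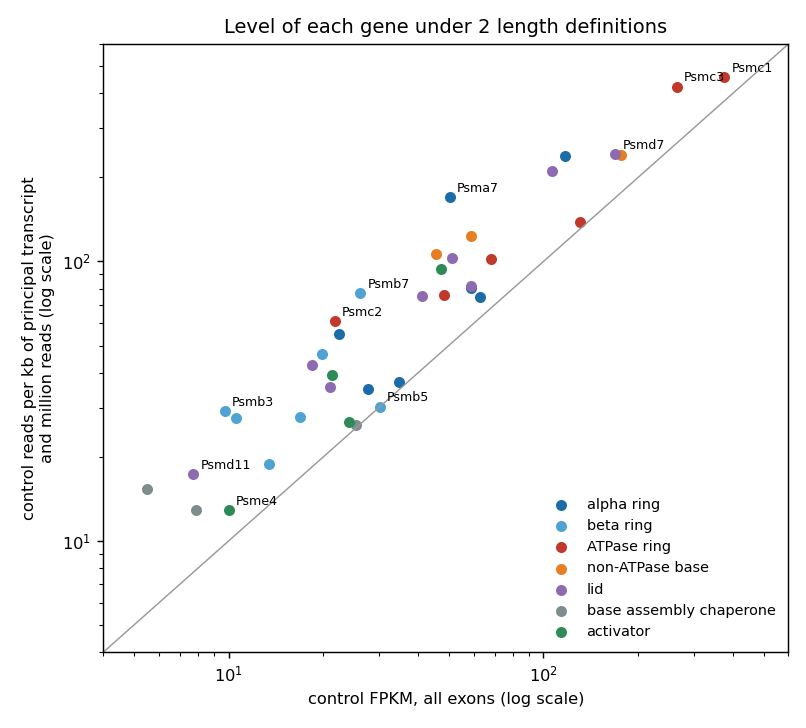
Control level of each tested proteasome gene as FPKM over all annotated exons (horizontal axis) and per length of the principal transcript (vertical axis), both log scales, coloured by class. All points lie on or above the diagonal of equal values, and Psma7 lies farthest from it at 50.5 and 169.6.

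Longer members tended to have lower log2 fold changes. Across the 38 tested members the log2 fold change had a Pearson correlation of -0.40 with log2 exon length. The Spearman correlation with exon length was -0.29, and across 12971 tested genes both were -0.08. Of the 29 members with under 4000 bases of exon 22 were higher, with a median of 0.07. From 4000 to 7000 bases 1 of 5 was higher (median -0.08). At 7000 bases and longer 2 of 4 were higher (median -0.05), namely Psmd5 and Psmd9, beside Psmd1 and Psme4, which were lower. All tested genes in these length classes had medians of 0.03, -0.01 and -0.03, with 53.4%, 48.5% and 44.9% higher. The part of length in the differences was not tested.

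Near-identical copies can take reads from a member. Of the 40 members, 11 had 21 such copies, with at least 90% identity over at least 50% of the principal transcript, and 20 of these copies were not protein coding. Where copy reads could be recovered, only 2 members had copies with over 5% of their own reads in the control library. Gm3375, a copy of Psmb5, had 0.815 and 0.663 FPKM without whole reads. The only copy of Psmb6 was not among the genes listed, so for Psmb5 and Psmb6 the share is not known. Psme2b, a copy of Psme2 with 99.4% identity over 82.5% of its transcript, had 315 and 200 reads, or 14.7% and 15.6% of the reads of Psme2. With these reads added, the ratio of Psme2 was 1.41 (1.28 to 1.54). A730017L22Rik, a copy of Psmd11 with 97.9% identity over 52.7%, had 515 and 303 reads. With them the ratio of Psmd11 moved from 0.941 to 1.02 (0.935 to 1.11), so its direction is uncertain. Exons of 10 members overlapped another gene, at most 25.5% of the exon length (Psmd9), and no member shared 50% or more.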

How the data were processed

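RNA of 1 PRP-treated and 1 vehicle-treated FAP culture was sequenced from stranded mRNA libraries. Per the labels and the study's methods, reads were trimmed with fastp 0.23.4, aligned to mm10 with STAR 2.5.3a and counted with featureCounts. The deposited values are FPKM per gene, as the authors computed them; the formula, the annotation release and the strand setting are not given in the sources used here. Without a known strand setting, reads of overlapping antisense genes cannot be told apart.

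Exon lengths of GENCODE M21 (GRCm38) turned FPKM into whole reads, within 0.001, for 26406 of 28160 expressed genes (93.8%) and for all 40 members. Up to 8 reads, 79.3% and 80.3% of the genes had even numbers, so intervals used reads divided by 2. They are Clopper-Pearson intervals of the PRP share. The reads served for depth and intervals alone, and no count test was run. The steps were tested on simulated data.

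Every member may be named, with ratios and intervals for the class extremes, catalytic subunits and activators, and other members were given the same values after they were seen. Of each other list the 2 largest changes are named, and all genes of lists of 3. Some further genes of these lists were named after their values were seen. Members and lists were chosen with earlier results of these data known. Paaf1 and Myf5 were not analysed here, and neither were protein sequences. Copies were found with blastn 2.17.0 and exon overlaps with bedtools 2.31.1. Python 3.11.15, NumPy 2.4.6, pandas 2.3.3, SciPy 1.17.1 and matplotlib 3.10.9 were used. The closing section gives the effect of other pseudocounts, filters, scalings and thresholds. Copies, length classes, the principal transcript scale and 5 of the 8 motifs were added after seeing the data.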

Additional observations from a re-analysis of the deposited data

How the results depend on the processing

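No member at least 1.2-fold higher or lower changed its direction under any setting. Of 331 recomputed values of 45 results, 317 stayed within a set limit. The limit was the counting error of the gene or sum, for medians the typical counting error of a single gene, and for numbers and SDs 1.5 times. Some of the 317 could not move: filters on low values and on shared exons leave single-gene values as they are. No member shared 50% of its exon length, so the 317 are no measure of how stable the results are. The median log2 fold change of the members ranged from 0.01 to 0.07 over all settings, their SD from 0.15 to 0.19, and the number higher in the PRP library from 22 to 26. Values near 0 did change sign. The median of the lid ranged from -0.03 to 0.02, Psma2 and Psmb7 were lower after rescaling to a common sum, and Psmc5 also when mitochondrial and top genes were left out of that sum. Psmd11 turned higher with the reads of its copy (1.02). The number of members at least 1.2-fold higher was 2 with a pseudocount of 5 and also 2 on rescaling that left mitochondrial and top genes out, where the number at least 1.2-fold lower was 2. Both numbers were 0 at 1.5-fold and 0 at 2-fold. That rescaling gave ratios of summed FPKM of 1.07 for the alpha ring, 0.943 for the ATPase ring, 0.961 for the non-ATPase base and 1.07 for the lid. The mean in place of the median gave -0.0199 for the non-ATPase base.

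No paired analysis was possible because there was 1 PRP library and 1 control library, and no library was left out. Counting error alone left 14 of the 38 intervals including 1, among them that of Psmb2 (602 and 552 reads, the fewest of the tested members), and Psma8 and Psmb11 had too few reads for a comparison. With neither group replicated, treatment and culture cannot be told apart.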
